A study of Mus musculus with 8 samples.

Results

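A group of 10 immediate early genes was followed through the cells of cytokine-treated mouse islets: the AP-1 subunits Fos, Fosb, Fosl2, Jun, Junb and Jund, with Egr1, Ier2, Nr4a1 and Npas4. The genes were taken by symbol, 10 of the 30406 genes listed for both replicates. The genes were chosen by their β-cell levels: Fos and Egr1 were low with cytokines and higher when nitric oxide synthase was inhibited. Their values in every contrast that holds the cytokine or the cytokines + NMMA libraries, and the values of all 10 genes in the contrast of cytokines with cytokines + NMMA, are therefore given below as a description, without a test.

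Islets of male C57BL6/J mice aged 12 to 16 weeks (strain C57BL/6 in the labels) were pooled from 10 mice per replicate and divided among 4 conditions for 18 h: untreated, cytokines (IL-1β at 10 U/mL with IFN-γ at 150 U/mL), cytokines + NMMA (the same with 2 mM of the nitric oxide synthase inhibitor NMMA), and NMMA alone. No transgene or knockout was used, and all islets were cultured intact and dispersed with trypsin after treatment, so the levels are those of dispersed cells. Each condition had 2 replicates, giving 8 single-cell libraries, and 10876 of 17426 barcodes passed the filters. Raw UMIs (unique molecular identifiers, one per captured mRNA molecule) were summed per library in 6 classes named from marker genes. These were 6324 β-, 648 α- and 295 δ-like cells, 324 macrophage-, 283 endothelial- and 215 mesenchymal-like cells. For short they are called β-cells, α-cells and so on. The α- and δ-cell classes also held cells with Ppy, and δ-cells were fewest in the cytokine libraries, with 11 cells in each.

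Immediate early genes are transcribed within minutes of a stimulus from factors already present in the cell, and their mRNAs are short-lived. Fos and Jun family proteins pair through leucine zippers to form AP-1, which binds TGANTCA in DNA, while Egr1 is a zinc finger factor that binds GC-rich sites. In β-cells, glucose, membrane depolarisation and cAMP are known inducers of several of these genes through the ERK and calcium/CREB pathways, and inflammatory signals reach Jun through the JNK kinase.

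Total UMIs per library ranged from 26549922 to 50731370, and no 2 libraries shared more than 2 barcodes. Nos2, which encodes the inducible nitric oxide synthase, was at 0 to 0.1 CPM (UMIs scaled to a fixed library total) in β-cells without cytokines. It was at 172 and 145 CPM with cytokines and at 471 and 486 CPM with cytokines + NMMA. β-cell median depth was 20433 to 29873 UMIs and the median mitochondrial share was 3.2 to 4.8%. The summed level of 7 α-cell markers in β-cells was 381 to 1511 CPM in 7 libraries and 4097 CPM in cytokine replicate 2. The part of these other-cell markers in the results was not tested. The largest β-cell cluster was led by Ppp1r1a, Slc2a2 and Mafa in untreated (69.6%) and NMMA libraries (44.6%), by Il4i1, Ptp4a1 and Defb1 with cytokines (61.0%), and by Lcn2, Nos2 and Cxcl10 with cytokines + NMMA (43.4%).

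The promoters of 8 of the 10 genes were matched in RefSeq (GRCm38.p6). Egr1 and Ier2 had no entry. The 150 bases upstream of the start of 4 AP-1 genes are printed 5′ to 3′ on the strand of the gene, because the levels of these 4 subunits separated in β-cells: Fos and Fosb were low with cytokines where Jun and Junb were not. Capitals mark TGACG (the shared core of cAMP response elements), TGACNTCA (a site of the Jun promoter type), TATAAA and CCAAT. They cover chr12:85473740-85473889 (plus strand) for Fos, chr7:19310046-19310195 (minus) for Fosb, chr4:95052223-95052372 (minus) for Jun and chr8:84978749-84978898 (minus) for Junb.
Fos: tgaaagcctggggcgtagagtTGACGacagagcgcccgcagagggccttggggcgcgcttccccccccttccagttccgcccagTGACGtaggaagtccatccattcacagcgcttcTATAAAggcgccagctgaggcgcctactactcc
Fosb: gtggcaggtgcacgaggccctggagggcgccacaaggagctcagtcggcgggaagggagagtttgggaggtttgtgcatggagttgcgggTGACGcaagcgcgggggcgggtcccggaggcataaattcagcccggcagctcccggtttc
Jun: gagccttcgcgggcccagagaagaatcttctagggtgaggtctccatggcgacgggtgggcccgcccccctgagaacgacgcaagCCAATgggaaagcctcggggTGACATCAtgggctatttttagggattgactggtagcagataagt
Junb: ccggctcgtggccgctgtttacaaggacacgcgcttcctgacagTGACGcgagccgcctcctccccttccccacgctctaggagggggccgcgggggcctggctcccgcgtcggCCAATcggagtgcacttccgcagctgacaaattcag

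Within the 250 bases upstream, TGACG on either strand was found in 5 of the 8 promoters (Fos, Fosb, Junb, Nr4a1 and Npas4) and in 17.8% of 32851 mouse promoters. In Fos it lay at bases -129 to -125 and -66 to -62 from the start, and in Nr4a1 it occurred at 4 places. TGACNTCA was found only in Jun, as TGACATCA at -45 to -38, against 7.49% of all promoters. TATAAA on the gene's strand was found only in Fos (-33 to -28), against 7.59% of all promoters, and CCAAT in Jun and Junb, against 33.8%. None of the 8 windows held the full TGACGTCA, the AP-1 site TGANTCA, the CArG box bound by SRF, the Egr site GCGTGGGCG or the STAT site TTCNNNGAA, which were found in 1.55%, 6.75%, 1.47%, 0.536% and 7.02% of promoters. TGACGTCA also contains TGACG and is a case of TGACNTCA. These matches describe letters in the window and say nothing of binding.

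Per the gene annotation of the deposited build (GRCm38), Fos lies on chromosome 12 (85473890 to 85477273, plus strand), Fosb on 7 (19302696 to 19310051, minus), Fosl2 on 5 (32135801 to 32157842, plus) and Jun on 4 (95049034 to 95052222, minus). Junb, Jund and Ier2 are on chromosome 8: Junb (84974484 to 84978718, minus), Jund (70698949 to 70700616, plus) and Ier2 (84661331 to 84662852, minus). Egr1 lies on chromosome 18 (34859823 to 34864984, plus), Nr4a1 on 15 (101254269 to 101274795, plus) and Npas4 on 19 (4984355 to 4990316, minus).

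In β-cells, Fos, an AP-1 subunit that cannot pair with itself, was at 33.3 and 40.2 CPM in untreated replicates 1 and 2. With cytokines it was at 4.86 and 5.66 CPM, with cytokines + NMMA at 44.2 and 36.0 CPM and with NMMA alone at 39.7 and 23.6 CPM. Both cytokine libraries lay below all 6 others, and the cytokines + NMMA libraries were within or near the range of the untreated ones. On the log2 scale, the cytokine libraries differed by -2.81 from untreated and by -2.94 from cytokines + NMMA. Fosb, a close relative of Fos, was at 4.23 and 12.4 CPM in untreated, 1.84 and 1.55 CPM in cytokine, 7.04 and 6.82 CPM in cytokines + NMMA and 10.3 and 5.64 CPM in NMMA libraries. The untreated pair differed from each other more than the cytokines + NMMA pair did.

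Egr1 was at 75.0 and 108 CPM in untreated β-cells, 7.81 and 15.2 CPM with cytokines, 44.0 and 54.1 CPM with cytokines + NMMA and 60.9 and 73.9 CPM with NMMA. The cytokine libraries were the lowest 2, the cytokines + NMMA libraries came next, and the untreated libraries lay above both. The log2 difference was -3.00 from untreated and -2.11 from cytokines + NMMA. Ier2, a nuclear protein induced by growth factors, was at 25.3 and 25.5 CPM untreated, 8.96 and 10.2 CPM with cytokines, 29.8 and 25.8 CPM with cytokines + NMMA and 21.3 and 19.4 CPM with NMMA. Its replicates were close in every condition and its cytokine libraries did not overlap with any other.

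**Figure D1:**
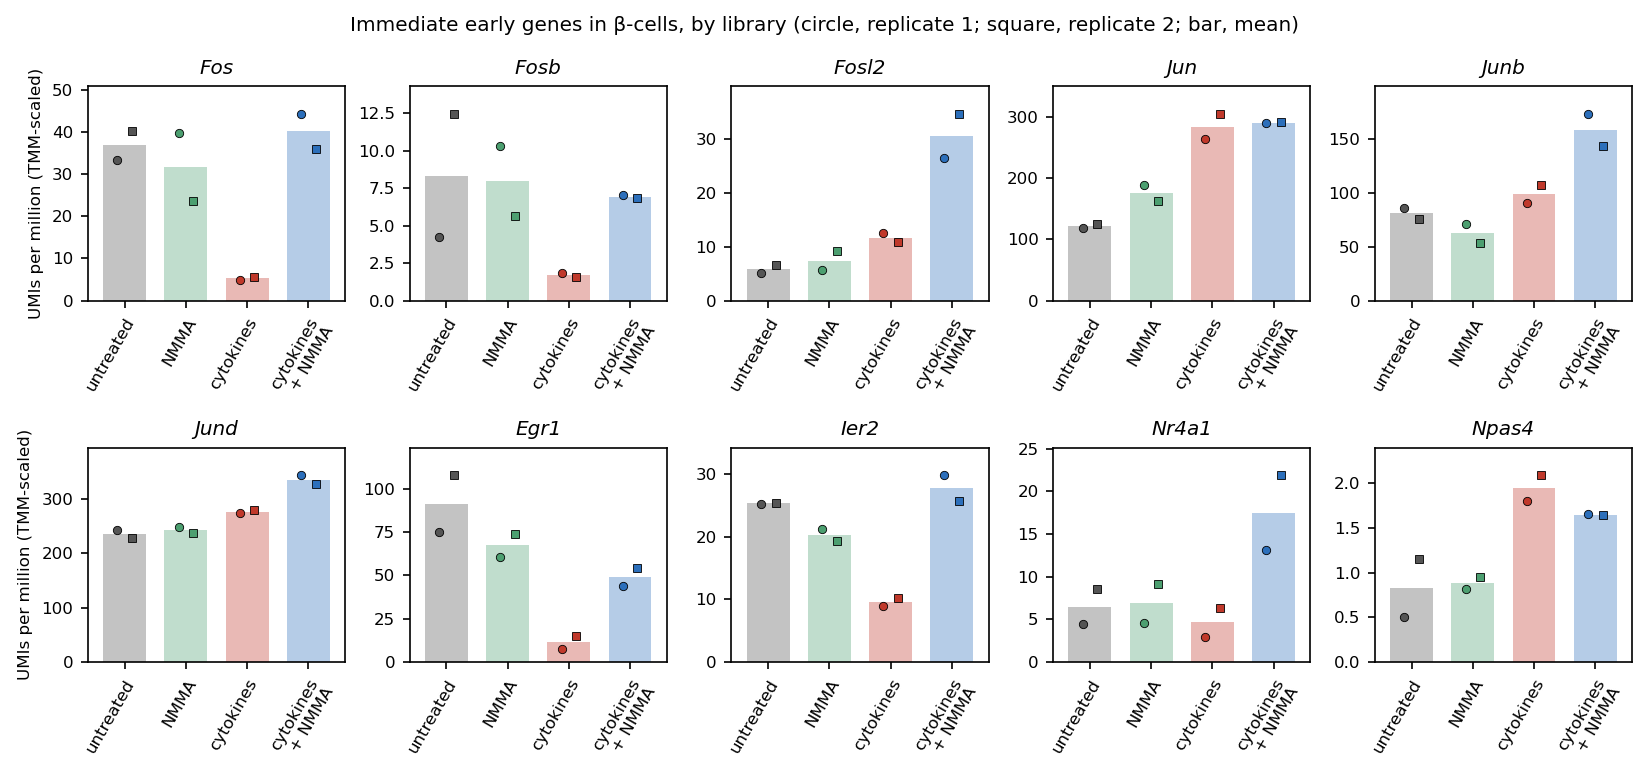
Level of each gene in β-cells (y axis, CPM, scaled within β-cells, a separate axis per gene) in the 4 conditions; circles are replicate 1, squares replicate 2 and bars their mean. Fos, Egr1 and Ier2 were lowest in both cytokine libraries (Fos 4.86 and 5.66), whereas Jun was above 260 in the 4 libraries with cytokines.

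The Jun side of AP-1 behaved differently in β-cells. Jun, which can also pair with itself, was at 118 and 126 CPM untreated, 263 and 305 CPM with cytokines, 289 and 292 CPM with cytokines + NMMA and 189 and 162 CPM with NMMA. All 4 libraries with cytokines lay above the 4 without. Junb was at 86.2 and 75.5 CPM untreated, 90.9 and 107 CPM with cytokines, 173 and 144 CPM with cytokines + NMMA and 71.1 and 53.4 CPM with NMMA, so that cytokines + NMMA stood above the rest. Jund, the subunit with the most constant expression, was at 242 and 228 CPM untreated, 273 and 279 CPM with cytokines, 342 and 328 CPM with cytokines + NMMA and 248 and 238 CPM with NMMA. Fosl2, a Fos relative without a strong activation domain, was at 5.18 and 6.52 CPM untreated, 12.6 and 10.8 CPM with cytokines, 26.5 and 34.6 CPM with cytokines + NMMA and 5.68 and 9.13 CPM with NMMA. Among the 10 genes its cytokines + NMMA libraries were furthest above untreated.

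Nr4a1, an orphan nuclear receptor, was at 4.48 and 8.52 CPM untreated, 2.95 and 6.33 CPM with cytokines, 13.1 and 21.9 CPM with cytokines + NMMA and 4.60 and 9.19 CPM with NMMA. In each condition replicate 2 was the higher. Npas4, a factor known for its calcium-dependent induction, was near the limit of detection, with 18 and 19 UMIs untreated, 47 and 31 with cytokines, 31 and 20 with cytokines + NMMA and 16 and 15 with NMMA over all β-cells of a library.

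The comparison of cytokines + NMMA with untreated gives the change with the cytokines and the inhibitor together. Cytokines + NMMA were not compared with NMMA alone, so the part of the inhibitor was not separated. Jun with NMMA alone (189 and 162 CPM) lay between untreated (118 and 126 CPM) and cytokines + NMMA (289 and 292 CPM). Fos and Egr1 had been picked partly for their level in the cytokines + NMMA libraries, so here too they were not tested, and the other 8 genes were chosen with these libraries known. Of those 8, which all passed the low-count filter, 4 rose in β-cells and none fell, where 22.6% of 12773 genes passed the test, 12.8% higher and 9.78% lower. Fosl2 rose by 2.39 ± 0.25 (SE, log2; adjusted p = 0.000186, edgeR quasi-likelihood test), Jun by 1.25 ± 0.14 (adjusted p = 0.000321), Junb by 0.97 ± 0.18 (adjusted p = 0.00434) and Jund by 0.51 ± 0.13 (adjusted p = 0.0174). The other 4 did not pass. Fosb differed by -0.24 ± 0.51 (adjusted p = 0.803), Ier2 by 0.13 ± 0.14 (adjusted p = 0.543), Nr4a1 by 1.45 ± 0.54 (adjusted p = 0.112) and Npas4 by 1.08 ± 0.42 (adjusted p = 0.0982). The untested log2 differences were 0.13 ± 0.23 for Fos and -0.90 ± 0.31 for Egr1.

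Same-numbered libraries came from the same islet pool. With the replicate as a block, Nr4a1 (1.45, adjusted p = 1.19e-07) and Npas4 (1.16, adjusted p = 0.0172) passed too, making 6 of 8, beside 5226 genes in place of 2889. Nr4a1 also passed with DESeq2 (adjusted p = 0.00312) and without a low-count filter (adjusted p = 2.05e-09). Jund no longer passed without that filter (adjusted p = 0.0666) or when any 1 of the 4 libraries compared was left out (adjusted p = 0.0603 to 0.133).

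Cytokines alone were then compared with untreated β-cells. This contrast uses the same untreated libraries, and the cytokine libraries in which Fos and Egr1 were picked, so those 2 genes were not tested. Of the other 8, Fosl2 (1.013 ± 0.24, adjusted p = 0.00879), Jun (1.22 ± 0.14, adjusted p = 0.000216) and Npas4 (1.31 ± 0.41, adjusted p = 0.0271) rose. Ier2 (-1.41 ± 0.14, adjusted p = 9.38e-05) and Fosb (-2.25 ± 0.56, adjusted p = 0.0161) fell. These 5 of 8 stand beside 46.3% of all genes, 23.8% higher and 22.5% lower. Junb (0.29 ± 0.18, adjusted p = 0.204), Jund (0.23 ± 0.13, adjusted p = 0.16) and Nr4a1 (-0.49 ± 0.56, adjusted p = 0.509) did not pass.

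With the replicate block, Fosb no longer passed (adjusted p = 0.115), whereas Junb (0.30, adjusted p = 0.0468), Jund (0.23, adjusted p = 0.0245) and Nr4a1 (-0.51, adjusted p = 0.0106) did. Jun and Ier2 passed in each of these fits and without any 1 library. Fosl2 no longer passed without untreated replicate 1 (adjusted p = 0.0721) or cytokine replicate 1 (0.0576), Fosb without either cytokine library (0.111 and 0.101), and Npas4 without untreated replicate 1 or either cytokine library (0.0652 to 0.2) or with DESeq2 (0.069). Scaling by total UMIs moved the median gene in this contrast by -0.22 on the log2 scale, and Npas4 then did not pass (adjusted p = 0.0631). Junb and Jund with the block (0.30 and 0.23) were near the size of this shift. The block was not run with total UMIs, so no rise of these genes is read from it.

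Between cytokines and cytokines + NMMA the β-cell log2 differences, given without a test, were -2.94 for Fos, -2.11 for Egr1, -2.02 for Fosb, -1.94 for Nr4a1, -1.54 for Ier2, -1.38 for Fosl2 and -0.68 for Junb. They were -0.28 for Jund, -0.03 for Jun and 0.23 for Npas4. In this contrast 19.6% of all genes passed the test (9.14% higher and 10.5% lower with cytokines), and nothing is read from the members against it. The cytokine and cytokines + NMMA libraries overlapped for Jun only, and Npas4 was the gene that was higher with cytokines. How often such libraries separate over all genes was not counted, so nothing is read from the lack of overlap. In Fosl2 the cytokine libraries lay below those of cytokines + NMMA and above the untreated ones.

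NMMA alone moved none of the 10 genes past the threshold in β-cells, nor any of the 12773 genes tested with edgeR (0%). At an unadjusted p under 0.05 there were 928 genes, among them 2 members (Jun and Ier2), and DESeq2 called 9 genes and no member. Jun had the lowest p of the members (0.53 ± 0.14, adjusted p = 0.508). With the replicate block 443 genes passed, among them Jun (0.53, adjusted p = 0.00937), and its NMMA libraries (189 and 162 CPM) lay above the untreated ones (118 and 126 CPM).

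Shares of β-cells in which a gene gave 1 UMI or more were counted after thinning each cell to 10000 UMIs. Fos was found in 20.1% and 25.2% of untreated, 2.99% and 4.62% of cytokine, 22.4% and 20.4% of cytokines + NMMA and 20.2% and 16.3% of NMMA β-cells. The exact 95% binomial intervals, which cover counting error only, were 2.06 to 4.17% and 2.92 to 6.91% for the cytokine libraries and 18.2 to 22.2% and 21.5 to 29.2% for the untreated ones. Egr1 was found in 36.4% and 44.0%, 4.62% and 8.61%, 21.6% and 28.2%, and 29.8% and 39.1% of cells in the same order of conditions. Without thinning, the mean shares were 33.0%, 7.47%, 34.3% and 29.0% for Fos and 50.8%, 11.8%, 36.6% and 46.6% for Egr1. No class in these libraries is known to lack Fos or Egr1, so the share that free RNA gives was not measured. The lowest Egr1 share in untreated cells was that of macrophages, 3.23% and 5.08%, at 1500 UMIs per cell. The summed level of β-cell markers in macrophages was 18540 to 55043 CPM in the 4 libraries without cytokines, and its part in that share was not tested.

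**Figure D2:**
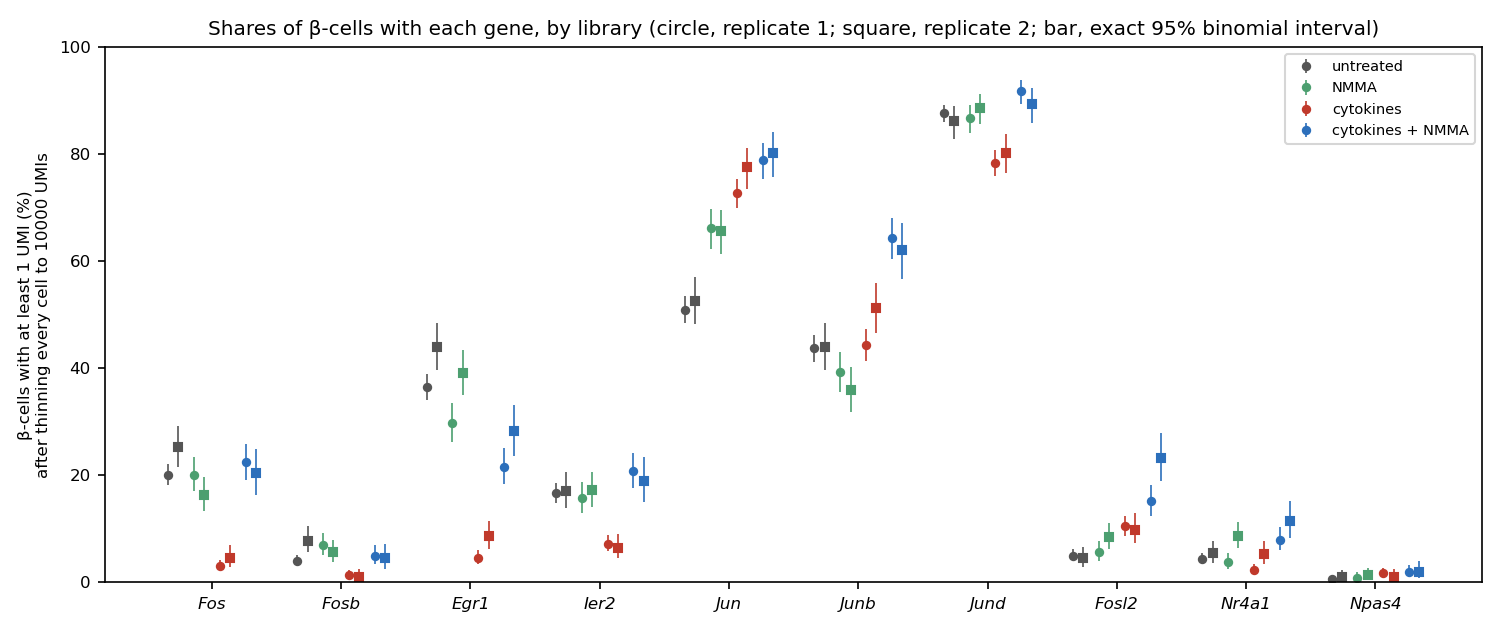
Share of β-cells in which each gene gave 1 UMI or more (y axis, percent) after thinning to 10000 UMIs per cell; one point per library, circles replicate 1 and squares replicate 2, with exact 95% binomial intervals that cover counting error only. Fos stood at 2.99 and 4.62% in the cytokine libraries and above 16% in the other 6, while Jun was found in 50.9 to 80.2% of cells in all libraries.

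Jun was found in 50.9% and 52.6% of untreated β-cells, 72.7% and 77.5% with cytokines, 78.8% and 80.2% with cytokines + NMMA and 66.1% and 65.5% with NMMA. Fosl2 was found in 5.0% and 4.5%, 10.5% and 9.87%, 15.2% and 23.2%, and 5.65% and 8.43% in the same order. The order of the Jund shares went against that of its CPM between untreated and cytokine libraries, and is not read.

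Within a library Fos and Egr1 were often found in the same cells. In untreated β-cells Egr1 was found in 64.2% and 68.2% of cells with Fos, and in 29.4% and 35.9% of cells without it. With cytokines + NMMA these values were 39.3% and 52.1% against 16.5% and 22.1%, and with NMMA 59.8% and 65.5% against 22.2% and 34.0%. In the cytokine libraries, where 33 and 22 cells had Fos, they were 15.2% and 9.09% against 4.29% and 8.59%. All cells were compared at 10000 UMIs, and cells of 1 library are not replicates.

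β-cells with and without Nos2 were compared inside the 4 cytokine libraries. With cytokines Fos was found in 2.3% and 2.4% of cells with Nos2 and in 3.7% and 6.3% of those without. With cytokines + NMMA it was found in 25.3% and 22.6% with Nos2 and 16.4% and 17.1% without. Fos was thus low with cytokines in cells on both sides of this split. Hspa1a encodes an inducible heat shock protein and led 1 of the β-cell clusters. Jun was at 237 and 250 CPM in untreated cells with Hspa1a against 116 and 105 CPM without, at 463 and 324 against 159 and 142 CPM with NMMA, and at 505 and 502 against 256 and 266 CPM with cytokines + NMMA. With cytokines the values were 249 and 394 CPM against 269 and 259 CPM, so only replicate 2 had more Jun in cells with Hspa1a.

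In α-cells, Fos was at 59.6 and 45.2 CPM untreated, 8.37 and 31.0 CPM with cytokines, 48.5 and 36.7 CPM with cytokines + NMMA and 44.9 and 42.2 CPM with NMMA. Egr1 was at 104 and 160, 5.02 and 76.3, 76.7 and 132, and 61.6 and 129 CPM in the same order. Cytokine replicate 1 rested on 5 UMIs of Fos and 3 of Egr1 in 46 cells and was far below replicate 2. The log2 differences, untested, were -1.22 ± 0.36 for Fos and -1.52 ± 0.98 for Egr1 against untreated, and -0.93 for Fos and -1.18 for Egr1 against cytokines + NMMA.

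With cytokines + NMMA, Junb (1.72 ± 0.25, adjusted p = 0.000159) and Fosl2 (1.74 ± 0.40, adjusted p = 0.00807) rose in α-cells and the other 6 genes tested did not pass, where 7.99% of 9711 genes did (5.9% higher). Junb went from 86.9 and 92.5 CPM to 295 and 299 CPM, and Fosl2 from 3.5 and 9.46 to 25.4 and 20.6 CPM. Fosl2 did not pass with DESeq2 (adjusted p = 0.0604) or without untreated replicate 1 (0.125) or cytokines + NMMA replicate 1 (0.0551). With cytokines, 5 of the 8 genes tested passed beside 21.9% of all genes (13.1% higher, 8.78% lower). Npas4 is among the 5, but its call is not read. Junb was at 593 and 318 CPM (2.33 ± 0.26, adjusted p = 7.24e-06), Jun at 558 and 558 CPM from 272 and 281 CPM (1.012 ± 0.19, adjusted p = 0.00113), and Fosl2 at 31.8 and 17.6 CPM (1.76 ± 0.44, adjusted p = 0.00849). Npas4 was at 11.7 and 23.5 CPM from 1.40 and 3.15 CPM (2.93 ± 0.61), on 7 and 28 UMIs against 2 and 6. Only the cytokine libraries carried it past the low-count filter, so its adjusted p (0.00222, edgeR) is not read as support. Ier2 was at 5.02 and 32.7 CPM from 91.1 and 61.0 CPM (-1.78 ± 0.48, adjusted p = 0.0302).

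Among these α-cell calls, Fosl2 did not pass without untreated or cytokine replicate 1 (adjusted p = 0.0837 and 0.0753), Npas4 not without cytokine replicate 2 (0.119), Ier2 not when untreated replicate 1 or any 1 of the cytokines + NMMA and NMMA libraries was left out (0.0606 to 0.119), and Jun not with total UMIs (0.056), a scaling that moved the median gene by -0.48. The summed level of β-cell markers in α-cells was 9128 and 20435 CPM untreated, 50086 and 51060 CPM with cytokines, 26865 and 55219 CPM with cytokines + NMMA and 24816 and 11381 CPM with NMMA, and its part in these changes was not tested. A cluster led by Hamp, Fgb and Vgf held 93.2% and 97.4% of α-cells with cytokines and with cytokines + NMMA, while the untreated α-cells were in clusters led by Gcg and Ppy.

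**Figure D3:**
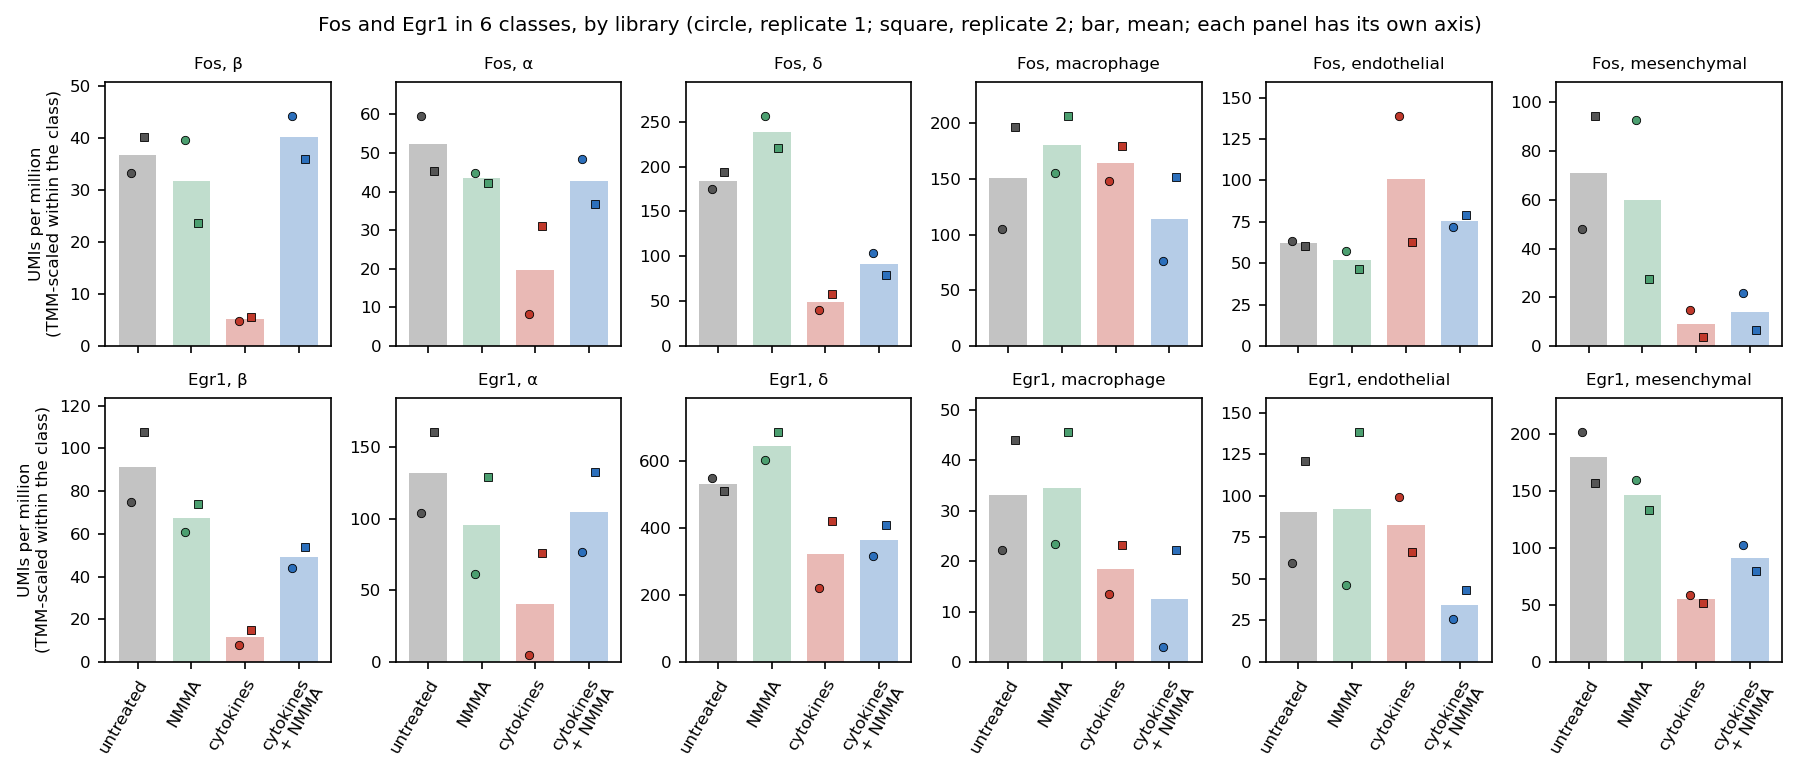
Fos (top) and Egr1 (bottom) in the 6 cell classes (y axis, CPM scaled within the class, a separate axis per panel) in the 4 conditions; circles are replicate 1, squares replicate 2 and bars their mean. The cytokine libraries were lowest for Fos in β-, α- and δ-cells and overlapped with cytokines + NMMA in mesenchymal cells, but were not lowest in macrophages (149 and 180) or endothelial cells (139 and 63.1).

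In δ-cells, Fos was at 175 and 194 CPM untreated, 40.4 and 58.3 CPM with cytokines, 103 and 79.3 CPM with cytokines + NMMA and 256 and 221 CPM with NMMA. All 4 conditions were apart from each other, and cytokines + NMMA differed from untreated by -0.995 ± 0.26 on the log2 scale (untested). Of the other genes 7 could be tested with cytokines + NMMA and none passed, beside 7.85% of 7042 genes. DESeq2 called none either, and Junb and Ier2 had an unadjusted p under 0.05. With the replicate block Junb passed (0.66, adjusted p = 0.0127). Egr1 was at 551 and 512 CPM untreated, 222 and 423 CPM with cytokines, 318 and 411 CPM with cytokines + NMMA and 605 and 687 CPM with NMMA.

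With cytokines, Fos and Egr1 differed from untreated δ-cells by -1.86 and -0.71 (untested), and none of the other 7 genes tested passed with edgeR, DESeq2 or the block, where 8.45% of all genes did. Jun was at 720 and 812 CPM untreated and at 578 and 486 CPM with cytokines (-0.53 ± 0.25, adjusted p = 0.224), and had the only unadjusted p under 0.05 among the 7. These cytokine values rest on 11 cells per library. A cluster led by Csf3 and Sst held 86.4% of δ-cells with cytokines and all of those with cytokines + NMMA, and one led by Sst, Arg1 and Pyy held 98.2% of the untreated ones. The summed level of 5 PP-cell markers in δ-cells, of which Abcc9 was at 0 throughout, was 102332 and 159210 CPM untreated, 46047 and 25926 CPM with cytokines, 46379 and 68030 CPM with cytokines + NMMA and 98314 and 114451 CPM with NMMA. That of 7 α-cell markers was 8028 CPM in cytokine replicate 2 and 322 to 5369 CPM in the other 7 libraries, and the part of either in the δ-cell differences was not tested.

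In macrophages, Fos was at 105 and 197 CPM untreated, 149 and 180 CPM with cytokines, 76.5 and 152 CPM with cytokines + NMMA and 155 and 207 CPM with NMMA, and the untreated range overlapped with that of each other condition. Egr1 was at 22.2 and 43.9 CPM untreated and rested on 1 to 31 UMIs per library. None of the 4 other members tested passed with cytokines + NMMA, where 6.46% of 5156 genes did, or with cytokines, where 4.62% did. DESeq2 called none either, and none had an unadjusted p under 0.05 in either contrast. In endothelial cells, Fos was at 63.6 and 60.5 CPM untreated, 139 and 63.1 CPM with cytokines, 71.7 and 79.3 CPM with cytokines + NMMA and 57.3 and 46.7 CPM with NMMA. Endothelial Egr1 was at 59.7 and 121 CPM untreated, 99.2 and 66.0 CPM with cytokines, 25.6 and 43.0 CPM with cytokines + NMMA and 46.2 and 138 CPM with NMMA. The cytokine libraries of these 2 classes were not the lowest for Fos. A cluster led by C1qb, H2-Ab1 and H2-Aa held 65.2% and 81.9% of macrophages with cytokines and cytokines + NMMA, and one led by Timp3, Ly6c1 and Ly6a held 97.4% and 100% of endothelial cells, while the untreated cells were nearly all in other clusters.

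Fosb had the largest log2 difference of the endothelial members in both contrasts, and Nr4a1 the next with cytokines. Fosb was at 21.2 and 39.4 CPM untreated, 4.96 and 8.60 CPM with cytokines, 5.12 and 11.3 CPM with cytokines + NMMA and 28.7 and 35.9 CPM with NMMA, without overlap between the libraries with and without cytokines. Nr4a1 was at 135 and 56.3, 14.9 and 37.3, 30.7 and 63.4, and 90.7 and 55.7 CPM. In the edgeR fit none of the 7 genes tested passed with cytokines + NMMA, where 6.64% of genes did, or with cytokines, where 6.33% did. DESeq2 called none either, and 4 members in each contrast had an unadjusted p under 0.05. With the replicate block, Fosb (-1.78, adjusted p = 0.0372) and Jun (0.57, adjusted p = 0.038) passed with cytokines + NMMA, and Fosb (-2.11, adjusted p = 0.0251) with cytokines. Fosb rested on 1 and 3 UMIs with cytokines and on 1 and 5 with cytokines + NMMA. It had 11 and 28 UMIs untreated and 18 and 20 with NMMA. Only the libraries without cytokines carried it past the low-count filter, so its adjusted p-values (edgeR) are not read as support. Nr4a1 passed with cytokines only without untreated replicate 2 (-2.21, adjusted p = 0.01) or without a low-count filter.

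Mesenchymal cells had low levels of Fos with cytokines in the presence and in the absence of NMMA: 47.8 and 94.3 CPM untreated, 14.7 and 3.72 CPM with cytokines, 21.7 and 6.40 CPM with cytokines + NMMA and 92.7 and 27.5 CPM with NMMA, from 1 to 4 UMIs in each cytokine-treated library. Egr1 was at 202 and 157, 58.9 and 52.0, 103 and 79.98, and 160 and 133 CPM, and Ier2 at 297 and 271, 125 and 89.2, 146 and 79.98, and 232 and 154 CPM in the same order. For Egr1 and Ier2 the 4 libraries with cytokines lay below the 4 without. Fos differed from untreated by -2.49 ± 0.83 with cytokines + NMMA (untested). None of the 5 other members tested passed in that contrast, where 1.97% of 5267 genes did, and Ier2 was at -1.35 ± 0.40 (adjusted p = 0.182). DESeq2 called none either, and of the 5 Ier2 alone had an unadjusted p under 0.05. With the replicate block Ier2 passed with cytokines + NMMA (-1.39, adjusted p = 0.0262) and with cytokines (-1.43, adjusted p = 0.0243), where 1.8% of genes passed in the unblocked fit. The summed level of β-cell markers in mesenchymal cells was 46165 and 5780 CPM untreated, 7333 and 67526 CPM with NMMA and 2332 to 4639 CPM in the 4 libraries with cytokines, and its part in these differences was not tested.

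**Figure D4:**
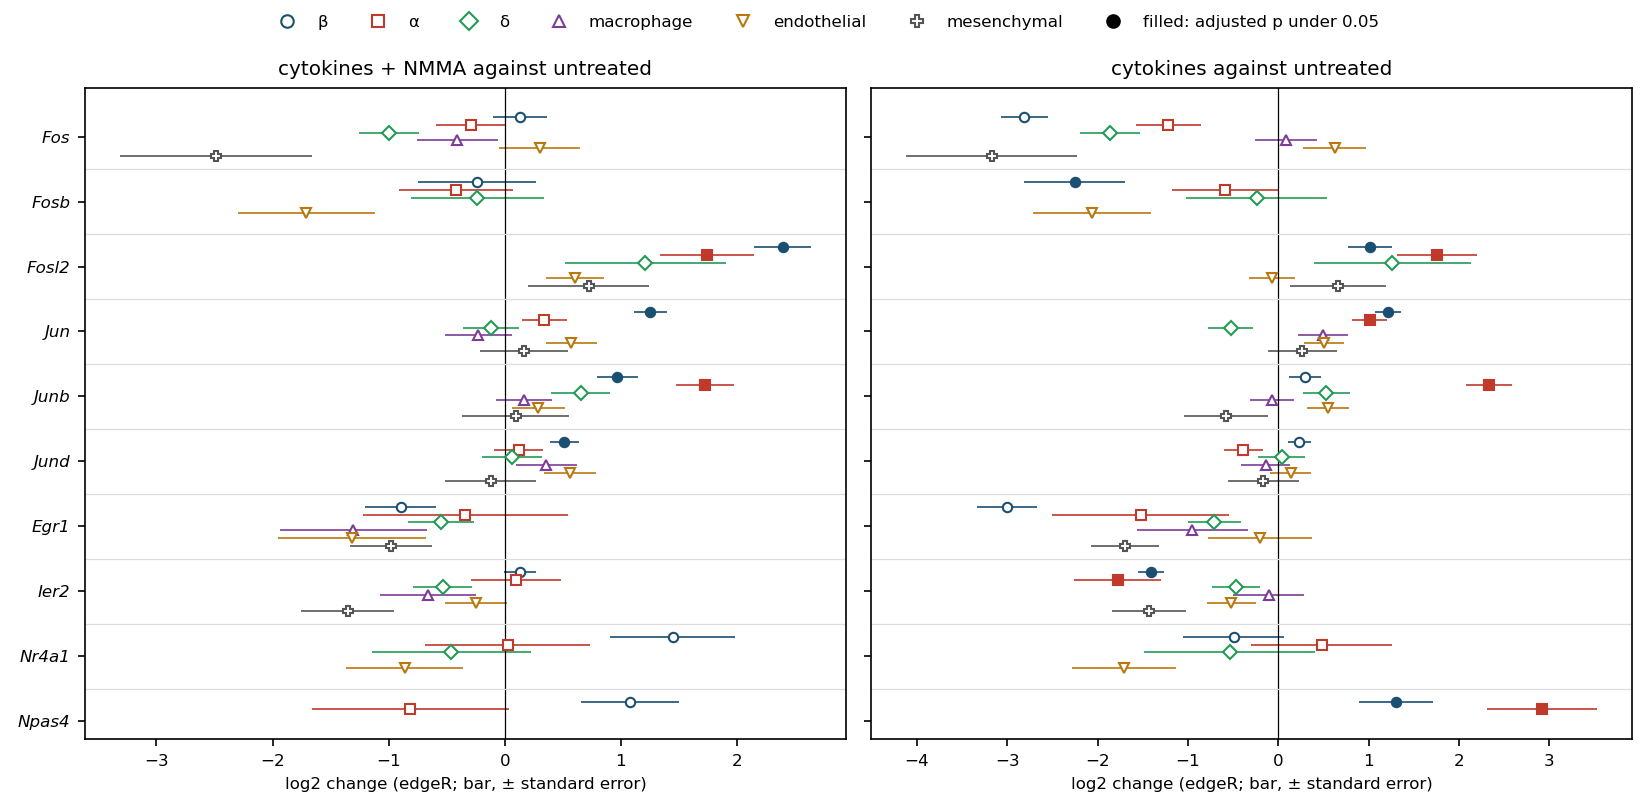
Log2 change of each gene (x axis, ± SE, edgeR) in the 6 classes with cytokines + NMMA (left) and cytokines (right) against untreated; filled symbols have an adjusted p under 0.05, open symbols do not or, for Fos and Egr1, were not tested. Fosl2 was filled for β- and α-cells in both panels, at 2.39 and 1.74 on the left.

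The statement that Fos and Egr1 fell with nitric oxide in β-cells only was part of the choice of these genes. As a description, cytokine libraries lay below cytokines + NMMA libraries in some other classes too. In δ-cells the cytokine libraries were below the cytokines + NMMA libraries for Fos, in mesenchymal cells for Egr1, and in α-cells for both genes, without overlap. These differences were -0.86 for Fos in δ-cells, -0.93 for Fos and -1.18 for Egr1 in α-cells and -0.72 for Egr1 in mesenchymal cells, against -2.94 and -2.11 for Fos and Egr1 in β-cells. The α-cell ranges of Egr1 were separated only by 76.3 against 76.7 CPM, and its other cytokine library rested on 3 UMIs. Endothelial Egr1 went the other way without overlap, at 99.2 and 66.0 CPM with cytokines and 25.6 and 43.0 CPM with cytokines + NMMA. How often 2 against 2 libraries separate over all genes was not counted, so no difference is read from the lack of overlap. Whether the classes differed in this contrast was not tested. In that contrast 10.8% of genes passed in α-cells, 0.98% in δ-cells, 0.116% in macrophages and 0% in endothelial and mesenchymal cells.

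NMMA alone called none of the members, and 0 genes in all, in each of the 5 other classes with edgeR, against 77 to 347 genes at an unadjusted p under 0.05. In these classes this contrast was not examined with the replicate block, which in β-cells moved the count from 0 to 443 genes.

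The untreated libraries also show where in the islet these genes were high. All 6 classes were put on a common TMM scale and each was compared with β-cells, with the library as a block, in 9984 genes. Npas4 did not pass the filter and was not tested. Fos was at 175 ± 79.6 CPM (SD, n = 2) in macrophages and 161 ± 10.9 in δ-cells, then at 64.6 ± 30.3 in mesenchymal, 58.1 ± 11.03 in α-, 54.9 ± 7.06 in β- and 49.2 ± 1.53 in endothelial cells. The upper 2 classes differed from β-cells (1.72 ± 0.21 and 1.57 ± 0.21, adjusted p = 3.76e-08 and 4.36e-07) and the lower classes lay within about 1 SD of their neighbours. Egr1 was at 465 ± 27.1 CPM in δ-cells, 163 ± 27.2 in mesenchymal, 147 ± 45.0 in α-, 136 ± 33.9 in β- and 71.7 ± 34.6 in endothelial cells, and 38.2 ± 18.8 in macrophages. Its level differed from β-cells in δ-cells (1.83 ± 0.19, adjusted p = 4.78e-08), endothelial cells (-0.90 ± 0.23, adjusted p = 0.00143) and macrophages (-1.75 ± 0.29, adjusted p = 1.55e-05). On this TMM scale mesenchymal, α- and β-cells did not differ beyond their spread.

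δ-cells, which make somatostatin, had 7 of the 9 members above β-cells, where 19.7% of all genes passed the test and 9.18% were higher. Besides Fos and Egr1 these were Ier2 (411 ± 48.6 against 37.9 ± 0.00561 CPM, log2 3.42 ± 0.18, adjusted p = 7.95e-18), Jun (669 ± 52.5 against 182 ± 7.34 CPM, 1.88 ± 0.15, adjusted p = 1.6e-12), Fosb (1.60 ± 0.32, adjusted p = 0.000209), Junb (1.18 ± 0.17, adjusted p = 8.09e-07) and Jund (0.64 ± 0.15, adjusted p = 0.00162). Fosl2 (0.59 ± 0.42, adjusted p = 0.387) and Nr4a1 did not pass. In the untreated δ-cell class the 5 δ-cell markers summed to 83436 and 80834 CPM, below the 5 PP-cell markers at 102332 and 159210 CPM. The part of cells with Ppy in these levels was not tested. α-cells were above β-cells in Ier2 (1.14 ± 0.18, adjusted p = 4.74e-06), Jun (0.75 ± 0.15, adjusted p = 0.000102) and Jund (0.45 ± 0.15, adjusted p = 0.0161), where 28% of all genes passed and 12.7% were higher.

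Endothelial cells had 6 members above β-cells and Egr1 below, where 60.2% of all genes passed, 29.5% higher and 30.7% lower. Fosl2 was at 181 ± 27.4 CPM in them against 8.73 ± 1.38 CPM in β-cells (4.36 ± 0.20, adjusted p = 5.71e-21), and Nr4a1 at 75.7 ± 43.7 against 9.69 ± 4.22 CPM (2.97 ± 0.53, adjusted p = 0.00201). Ier2, Junb, Jun and Fosb were higher by 2.67, 2.16, 1.41 and 1.001. Mesenchymal cells had 5 members higher, where 49.2% of all genes passed and 24.3% were higher: Ier2 (2.76), Fosl2 (2.15), Junb (2.12), Fosb (1.46) and Jun (0.59). In macrophages, Fos, Junb (1.05) and Ier2 (1.04) were higher and Jund (-1.85), Egr1 and Jun (-0.43, adjusted p = 0.0441) lower, where 53.7% of all genes passed, 25.9% higher and 27.9% lower. Jun in macrophages did not pass with RLE scaling (adjusted p = 0.0615), total UMIs (0.62), DESeq2 (0.0648) or without the library block (0.122).

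Without the library block, Jund in α-cells (adjusted p = 0.129) and Fosb in δ-, endothelial and mesenchymal cells (0.187, 0.174 and 0.088) did not pass either. The scale mattered here: total UMIs in place of TMM moved the median gene by 0.30 in macrophages, 0.52 in α-, 0.61 in δ-, 0.68 in mesenchymal and 0.91 in endothelial cells. On that scale Egr1 in endothelial cells was at 0.0024 instead of below β-cells, and endothelial Fos (0.74, adjusted p = 0.015) and Jund (0.87, adjusted p = 8.48e-06) passed above β-cells. Fos and Egr1 then also passed above β-cells with edgeR in α-cells (0.59 and 0.62, adjusted p = 0.03 and 0.0253). The same held in mesenchymal cells (0.96 and 0.92, adjusted p = 0.00794 and 0.00526), so these comparisons depend on the scale.

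**Figure D5:**
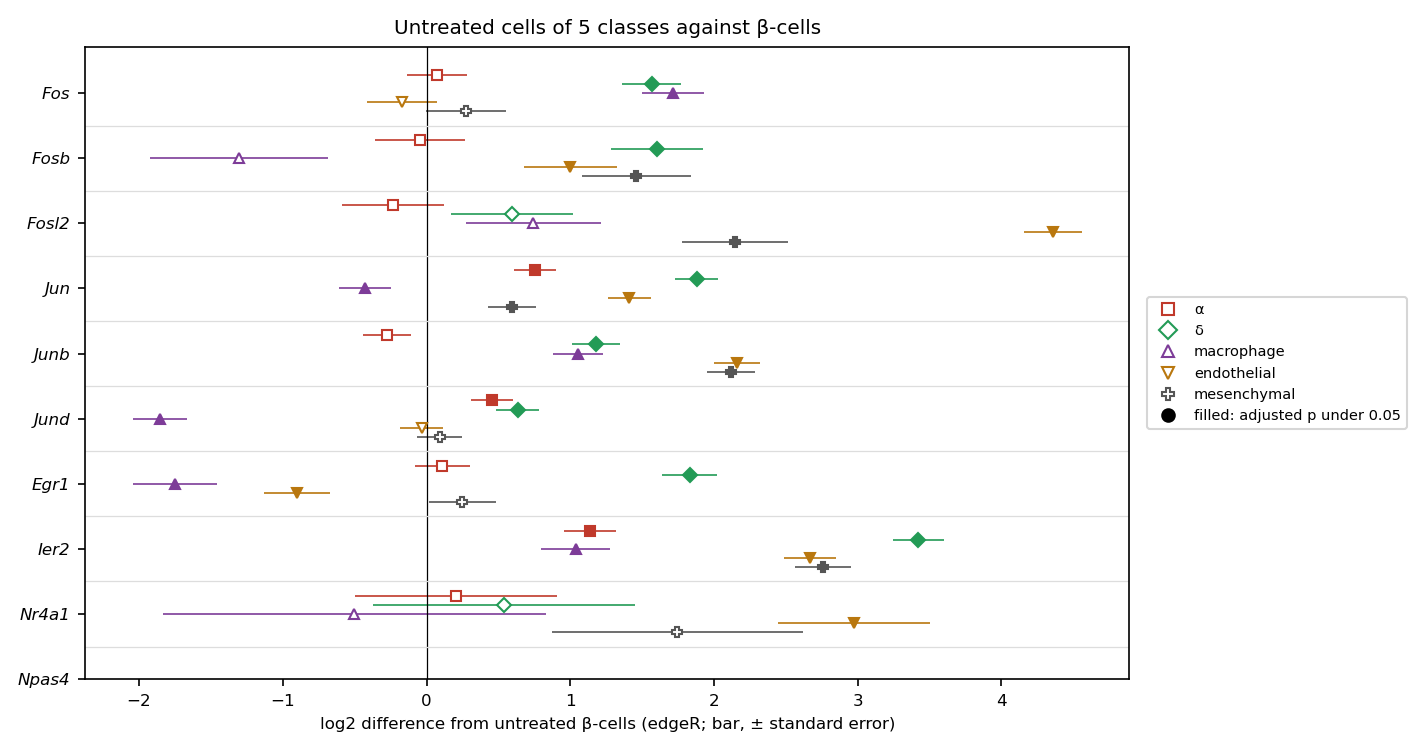
Log2 difference of each gene from untreated β-cells (x axis, ± SE, edgeR with the library as a block) in 5 other untreated classes; filled symbols have an adjusted p under 0.05, and Npas4 was not tested. Fosl2 in endothelial cells lay furthest to the right (4.36), δ-cells had 7 filled symbols to the right of 0 and macrophages 3 to its left; on the total-UMI scale endothelial Egr1 moved from -0.90 to 0.0024.

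Genes around the members were counted in 3 lists. The first held 23 other immediate early response genes, of which 17 could be tested in β-cells. With cytokines + NMMA, 10 rose and none fell (median log2 1.13), beside 22.6% of all genes (12.8% higher), led by Atf3 (3.16), a stress-induced zipper protein, Gadd45b (3.06), Ier3 (2.73), Csrnp1 (2.62) and Klf6 (1.87). With cytokines, 9 rose and 2 fell (median 1.001), beside 46.3% of all genes (23.8% higher and 22.5% lower), led by Gadd45b (3.90), Atf3 (3.74), Klf6 (2.34), Maff (2.34) and Ccn1 (2.11), while Nr4a2 (-1.47) and Btg2 (-1.01) were the 2 that fell. Nr4a2, a relative of Nr4a1, rose with cytokines + NMMA (1.45 ± 0.35, adjusted p = 0.0208). In all genes tested the median was -0.00304 and 0.00242.

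The second list held 25 kinases and factors upstream of these genes, and all were tested in β-cells. With cytokines + NMMA, 4 rose and 1 fell: Crem (1.54), Map2k1 (1.07), Map2k3 (0.75) and Crtc2 (0.43) were higher and Mapk10, which encodes JNK3, was lower (-0.64). With cytokines, 7 rose and 1 fell, led by Crtc2 (1.28), Srf (1.27), Map2k3 (1.16), Map2k1 (0.99) and Mapk10 (-0.97). These 5 and 8 of 25 stand beside 22.6% and 46.3% of all genes, and the list medians were 0.05 and 0.11. Map2k1 encodes the ERK kinase MEK1, Crem and Crtc2 act in the CREB pathway, and Srf encodes serum response factor.

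The third list held 10 other AP-1 partners and Egr corepressors, 9 of them tested. With cytokines + NMMA, 4 rose (median 0.40): Batf (5.48 ± 1.03), Jdp2 (2.94 ± 0.75), Mafk (1.79 ± 0.14) and Nab1 (1.29 ± 0.12). With cytokines, 6 rose (median 0.89), led by Batf (4.96), Jdp2 (2.72), Mafk (2.20), Nab1 (1.60) and Bach1 (0.89), and none fell in either contrast, beside the same 22.6% and 46.3% of all genes. Whether only the libraries with cytokines carried Batf and Jdp2 past the low-count filter was not checked, so their calls are not read as support. Batf and Jdp2 are zipper proteins that pair with Jun proteins, and Nab1 is a corepressor of Egr1. In α-cells the 3 lists had 5, 1 and 3 members higher with cytokines + NMMA of 16, 23 and 9 tested, and none lower, beside 7.99% of all genes. In δ-cells they had 3, 1 and 0 higher of 11, 21 and 7, with 1 lower in the first list, beside 7.85% of all genes.

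The genes most like Fos over the 8 β-cell sums, by Pearson's r of log2 CPM, were A930019D19Rik (0.992), Asb8 (0.990), Thrb (0.989), Hnrnph2 (0.989) and Pde10a (0.985). For Egr1 they were Ffar1 (0.992), Gm31518 (0.991), C1qtnf4 (0.990), Tug1 (0.990) and Add3 (0.989). The 8 sums fall into 4 conditions and share their libraries, so these values describe the ranking only. Over all 48 sums of the 6 classes the closest were Cyth1 (0.680), Sptssa, Acp2, Hhex and Kctd12 (0.651) for Fos, while those for Egr1 included Golim4 (0.779), Olfm1, 2810001G20Rik and Fndc5 (0.716).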

How the data were processed

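Single-cell 3′ RNA-seq (10x Genomics) of 8 dispersed islet libraries was used. The authors deposited gene-by-barcode UMI counts, not normalised, from Cell Ranger 3.0.0 (replicate 1) and 6.0.0 (replicate 2) per the file headers, on mm10 per the submitters' processing notes. The labels give a v2 kit and the study's methods a v3 kit. A 3′ count depends on each transcript's end, so levels were compared between cells and not between genes. Total counts per library were 26549922 to 50731370, and gene-level precision in rare classes is limited by their few cells.

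Barcodes with at least 200 genes, at most 5500 (replicate 1) or 6500 (replicate 2) genes and at most 10% mitochondrial UMIs were kept. Cells were clustered in scanpy 1.11.5 (2000 variable genes without the 10 members, 30 principal components, 20 neighbours, leidenalg 0.10.2 at resolution 1, 25 clusters) and classes named from fixed markers. A total of 200 doublets (1.84%) were scored and kept, and removed as an alternative. Raw counts were summed per library and class, with at least 10 cells per sum.

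Sums were tested with the edgeR 4.0.16 quasi-likelihood test (TMM scaling, low-count filter, R 4.3.3), one fit per class over all 4 conditions without a block, with Benjamini-Hochberg adjustment over all genes tested and a threshold of 0.05. The alternatives were DESeq2 1.42.0, RLE and total-UMI scaling, no filter and a minimum of 20 cells. Others were members and list genes allowed in the clustering, the replicate block and each library left out. CPM are UMIs scaled to a fixed total with TMM factors. The 2 replicates are 2 islet pools, so p-values rest on 2 samples per group. Same-numbered libraries share a pool. Their deviations from the group means correlated in β-cells with r of 0.597 to 0.685 over 6 pairs (lowest of any class, 0.128, in mesenchymal cells), so the numbers pair the samples. Untreated classes were compared with the library as a block. Tests of Fos and Egr1 with cytokines + NMMA had been planned but are not used, because the choice of these genes had used those libraries. The fits were tested on simulated data for cytokines + NMMA against untreated. A simulated log2 change of 1 was recovered in 62% of changed genes in β-cells, 36.7% in δ-cells and 31.6% in α-cells. In macrophages it was recovered in 27.6%, in endothelial cells in 18.6% and in mesenchymal cells in 4.26%. A gene that did not pass in these classes is therefore not read as unchanged.

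The members and the 3 lists were chosen with earlier results of these data known. All 10 members are named. Of each list up to 5 genes with the largest change among those that passed are named per β-cell comparison, and of neighbours the 5 with the highest r, of which 1 is not reported here; Nr4a2 is named for 1 further value because of its relation to Nr4a1. The comparisons share the untreated libraries. Promoters came from RefSeq (GRCm38.p6).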

Additional observations from a re-analysis of the deposited data

Results flagged for a closer look

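In 12 cases both libraries of a treatment moved one way against the untreated libraries in β-cells and the opposite way in another class. In none of them was the difference between the classes tested. The search covered the members other than Fos and Egr1 in each other class and in both contrasts. Neither the pairs searched nor the share over all genes was counted, so the number of cases is not read as a result. Some of the values, such as Ier2 at 0.13 in β-cells, lay near 0. With cytokines + NMMA, Jun was at -0.23 (log2 change) in macrophages and 1.25 in β-cells. Ier2, at 0.13 in β-cells, was at -0.53 in δ-cells, -0.66 in macrophages, -0.25 in endothelial cells and -1.35 in mesenchymal cells, so that 4 of the 5 other classes lay on the other side of 0. Nr4a1 was at 1.45 in β-cells and -0.46 in δ-cells.

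With cytokines alone, Jun was at -0.53 in δ-cells, from 11 cells per library, and 1.22 in β-cells. Junb, at 0.29 in β-cells, was at -0.0676 in macrophages and -0.58 in mesenchymal cells. Jund, at 0.23 in β-cells, was at -0.39 in α-cells, -0.14 in macrophages and -0.17 in mesenchymal cells. The β-cell values of Junb and Jund were near the size of the shift that total-UMI scaling gave the median gene (-0.22). Of the values outside β-cells, none passed the test in its own class with the edgeR fit. In α-cells Jund passed when total UMIs were the scale (-0.88, adjusted p = 0.00812), and in mesenchymal cells Ier2 passed with the replicate block.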

How the results depend on the processing

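Against untreated β-cells, 4 values changed direction between 2 fits of which at least 1 passed the test: endothelial Fos (0.74), Jund (0.87) and Egr1 (0.0024) with total UMIs, and mesenchymal Jun (-0.0499) when the NMMA libraries were added; the cause was not tested. Endothelial Fos and Jund passed above β-cells with total UMIs. The number of members called with the replicate block was 6 in place of 4 (β-cells, cytokines + NMMA), 1 in place of 0 (β-cells, NMMA), 1 in place of 0 (δ-cells, cytokines + NMMA), 2 and 1 in place of 0 (endothelial cells, cytokines + NMMA and cytokines) and 1 in place of 0 in both mesenchymal contrasts. The block changed no other count by more than 1.5 times, and the single calls it changed stand in the report. DESeq2 called 1 in place of 2 (α-cells) with cytokines + NMMA. Without a low-count filter 2 endothelial members passed with cytokines and 1 mesenchymal member in either contrast, and with total UMIs 1 endothelial member with cytokines. On that scale 5 in place of 3 members were called in untreated α-cells and 8 in place of 5 in mesenchymal cells. The endothelial counts with the block and with total UMIs include Fosb, whose calls are not read.

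Without 1 library at a time, the members called were 2 to 5 (β-cells, cytokines), 3 to 4 (β-cells, cytokines + NMMA), 1 to 2 and 3 to 5 (α-cells, cytokines + NMMA and cytokines) and 0 to 1 (endothelial cells, cytokines). The β-cell difference between cytokines and cytokines + NMMA then ranged from -3.07 to -2.77 for Fos and from -2.64 to -1.69 for Egr1, values chosen for recomputation after seeing the data. With total UMIs they were -3.15 and -2.32. The lone library left in a group was assumed to vary like the others. In the comparison of untreated classes, leaving out a replicate leaves no residual degrees of freedom. Unthinned shares of β-cells were 33.0, 7.47, 34.3 and 29.0% for Fos and 50.8, 11.8, 36.6 and 46.6% for Egr1 (untreated, cytokines, cytokines + NMMA, NMMA).

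Over all genes, counts moved by more than 1.5 times from 2889 to 5226 (block) and to as few as 1291 without a library (β-cells, cytokines + NMMA), from 5910 to 3647 without a library (β-cells, cytokines), from 0 to 443 (block; β-cells, NMMA), from 776 to 499 (DESeq2), 475 and 1316 and from 2126 to 1203 (DESeq2), 1152 and 3189 (α-cells), from 553 to 249 and 892 and from 595 to 277 and 871 (δ-cells), and from 2793 to 1683 and 4743 and from 1962 to 1241 and 3916 (untreated α- and δ-cells against β-cells). In macrophages they ranged from 189 to 618 and 135 to 457, in endothelial cells from 319 to 760 and 291 to 783 and in mesenchymal cells from 69 to 265 and 46 to 276 (cytokines + NMMA and cytokines). The minimum of 20 cells was not run for δ-cells with cytokines, where no library reaches it. Mesenchymal Fos rested on 1 to 4 UMIs in each library with cytokines, and α-cell Egr1 on 3 UMIs in cytokine replicate 1.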
